A study of Mus musculus with 2 samples.

Results

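*Zic1*, *Zic2*, *Zic4* and *Zic5* encode zinc finger transcription factors of the Zic family, and they were taken by gene name from the 37071 gene names measured on both arrays. The 4 genes were read by 11 probes, of which all were taken whatever their signal. RNA came from the forebrain and midbrain of mouse embryos at E10.5. Wild type embryos of strain C57BL/6 were labeled with Cy3 and homozygous luxoid embryos (*Plzf* lu/lu, strain given as luxoid) with Cy5, in 2 biological replicates, each replicate on an array of its own. The luxoid allele is a spontaneous base change that truncates the Plzf protein in every cell of the animal, and *Plzf* is listed on the array under its current name *Zbtb16*. How many embryos went into each RNA sample is not stated for the arrays. The strains are labeled differently, so the *Plzf* genotype and the rest of the genetic background cannot be told apart. The dyes were not swapped, so a dye effect on a probe cannot be told apart from the genotype, and both arrays lay on 1 slide.

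The *Zbtb16* probe gave a processed signal (spot brightness after background subtraction and dye normalization) of 433 in wild type and 172 in lu/lu on array 1. On array 2 it gave 546 in wild type and 211 in lu/lu. Both lu/lu channels were below both wild type channels, with a log2 ratio of lu/lu to wild type of −1.33 and −1.37. One of these signals was under the minimum of 200, so *Zbtb16* was not among the genes tested.

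Zic proteins bind DNA through a row of C2H2 zinc fingers related to those of the Gli and Glis proteins. In vertebrate embryos they are expressed in the neural plate and later mainly in the dorsal neural tube, and they are known for roles in the dorsal midline, the neural crest and the forebrain. Loss of ZIC2 function causes holoprosencephaly, and deletion of *ZIC1* together with *ZIC4* has been linked to malformation of the cerebellum.

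No Zic gene differed between lu/lu and wild type by more than 1.3-fold on both arrays. Of the 4 genes, 3 passed the signal filter (in each of the 4 channels, a processed signal above 200 and a signal-to-noise ratio of 5 or more), and *Zic2* did not. Among these 3, 0 were higher and 0 were lower beyond 1.3-fold on both arrays, where 2.58% of the 10600 genes that passed the filter were higher and 0.736% were lower. In limma, 0 of the 3 had an adjusted p under 0.05, where 0.0283% of the tested genes did. At an unadjusted p under 0.05 the count was 1 of the 3 Zic genes and 2942 of the 10600 genes (27.8%). An exact sign-flip test on 2 arrays cannot go below p = 0.5, so the limma test rests on the variance pooled over genes. In tissue RNA, fewer cells that express a gene and less RNA per cell cannot be told apart.

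*Zic1*, expressed in the dorsal neural tube and needed for normal cerebellar development, was read by 1 probe at chr9:91255425-91255484 (mm9) on the minus strand. Its processed signal on array 1 was 5032 in wild type and 5315 in lu/lu. On array 2 it was 5717 in wild type and 4579 in lu/lu. The lu/lu channel was the brighter one on array 1 and the dimmer one on array 2, and lu/lu on array 1 was brighter than wild type on array 1 but dimmer than wild type on array 2, so the groups overlapped. The log2 ratios were 0.08 and −0.32, with a mean of −0.12 ± 0.28 (SD, n = 2). In limma the 95% interval of the mean ran from −0.40 to 0.16, with an adjusted p of 0.508. The SD between arrays was larger than the mean, and it was above the median SD of 0.08 over all genes tested.

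*Zic4*, the partner of *Zic1* on chromosome 9, was read by 5 probes on the plus strand. The nearest *Zic1* and *Zic4* probes were 8.37 kb apart, and their strands place both genes head to head. The brightest *Zic4* probe, at chr9:91282924-91282983, gave 334 in wild type and 272 in lu/lu on array 1. On array 2 it gave 259 in wild type and 237 in lu/lu. The lu/lu channel was the dimmer one on both arrays, but lu/lu on array 1 was brighter than wild type on array 2, so the groups overlapped. The log2 ratios were −0.30 and −0.13, with a mean of −0.21 ± 0.12 (SD, n = 2). The 95% interval in limma ran from −0.42 to −0.01, with an unadjusted p of 0.0423 and an adjusted p of 0.167. The ratio was below 1 on 2 of 2 arrays, and 72.6% of all genes tested had the same sign on both arrays. With normexp and median centring of each array, which moved the median of all tested genes to 0.56, the mean turned to 0.24 for *Zic4* and to 0.51 for *Zic1*. Relative to that median these were −0.32 for *Zic4* and −0.05 for *Zic1*.

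The other 4 *Zic4* probes were well above background in all 4 channels but under the signal minimum. The probe at chr9:91279481-91279540, assigned to a predicted *Zic4* transcript, gave 168 in wild type and 125 in lu/lu on array 1. On array 2 it gave 169 in wild type and 111 in lu/lu. Both lu/lu channels were below both wild type channels. Its log2 ratios were −0.43 and −0.60, and with every probe well above background as a feature its limma adjusted p was 0.267 and its 95% interval ran from −0.80 to −0.23. Of the 10 Zic probes well above background, this 1 was lower beyond 1.3-fold on both arrays and 0 were higher, where 2.29% of the 33949 probes well above background were lower and 2.26% were higher. Among probes well above background with all 4 signals under 200, as for this one, 3.25% were lower.

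The probe at chr9:91263852-91263911 had log2 ratios of −0.26 and −0.43. At chr9:91273565-91273624 they were 0.09 and −0.38, and at chr9:91268702-91268761 they were 0.0313 and −0.00154. The *Zic4* probes therefore disagreed, with 3 of 5 negative on both arrays and means from −0.52 to 0.01 on the log2 scale.

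*Zic5* lies on chromosome 14 beside *Zic2*, again head to head, with 19.8 kb between the nearest probes. It acts in neural crest and forebrain development. Its brightest probe, at chr14:122856019-122856078 on the minus strand, gave 617 in wild type and 662 in lu/lu on array 1. On array 2 it gave 641 in wild type and 603 in lu/lu. The 4 channels were close to each other and their order turned between the arrays. The log2 ratios were 0.10 and −0.09, with a mean of 0.01 ± 0.14 (SD, n = 2), a limma 95% interval of −0.20 to 0.22 and an adjusted p of 0.966. That interval lies within 1.3-fold in either direction, but the mean was 0.52 with normexp and median centring, which is −0.0340 relative to the median of all tested genes, and it turned to −0.0897 with the mean over probes and to −0.0518 with the GC trend removed.

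A probe listed under the name BB247860, at chr14:122856013-122856072 on the same strand, shared 54 bases with this *Zic5* probe. It gave 460 in wild type and 523 in lu/lu on array 1, and 476 and 487 on array 2. Its log2 ratios of 0.19 and 0.03 differed from those of the *Zic5* probe by −0.08 and −0.12 (*Zic5* less BB247860), which shows how far near-identical probes differed within an array. The other 2 *Zic5* probes were dim, with signals between 12.1 and 29.0. Their log2 ratios were 0.09 and −0.51 for the one at chr14:122858394-122858453, and 0.12 and −0.25 for the one at chr14:122858928-122858987, which was not well above background in every channel.

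*Zic2*, whose human counterpart is a holoprosencephaly gene, was read by 2 probes on the plus strand, both well above background and both under the signal minimum. The probe at chr14:122879296-122879355 gave 73.1 in wild type and 157 in lu/lu on array 1. On array 2 it gave 160 in wild type and 152 in lu/lu. The wild type channel of array 1 stood apart, and the other 3 channels were within a narrow range. Over the whole array that channel also had fewer gene spots well above background (36936, against 43546 in lu/lu of array 1, and 44100 and 44318 in wild type and lu/lu of array 2), and the part of this in the *Zic2* value was not tested. The second probe, at chr14:122878810-122878869, gave 116 in wild type and 101 in lu/lu on array 1, and 95.2 and 94.1 on array 2. The log2 ratios were 1.10 and −0.07 for the first probe and −0.19 and −0.02 for the second, so the high value of array 1 was seen with 1 of the 2 probes. With every probe well above background as a feature, the limma adjusted p was 0.442 for the first and 0.610 for the second.

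**Figure D1:**
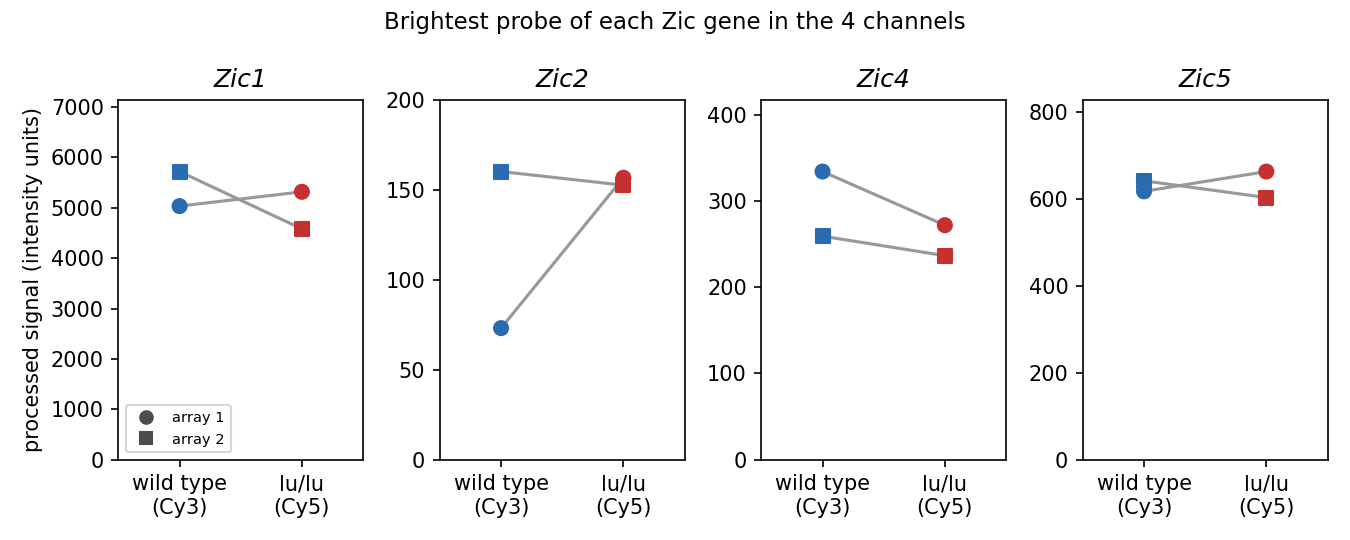
Processed signal (intensity units, linear axis from 0) of the brightest probe of each Zic gene in wild type (Cy3, blue) and lu/lu (Cy5, red), with circles for array 1, squares for array 2 and a line joining the channels of an array. The lines cross for *Zic1* and *Zic5*, both lines run to a dimmer lu/lu channel for *Zic4* (334 to 272 and 259 to 237), and for *Zic2* the wild type channel of array 1 (73.1) stands apart. With normexp and median centring the mean log2 ratio of *Zic4* turned to 0.24, which was −0.32 relative to the median of all tested genes.

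**Figure D2:**
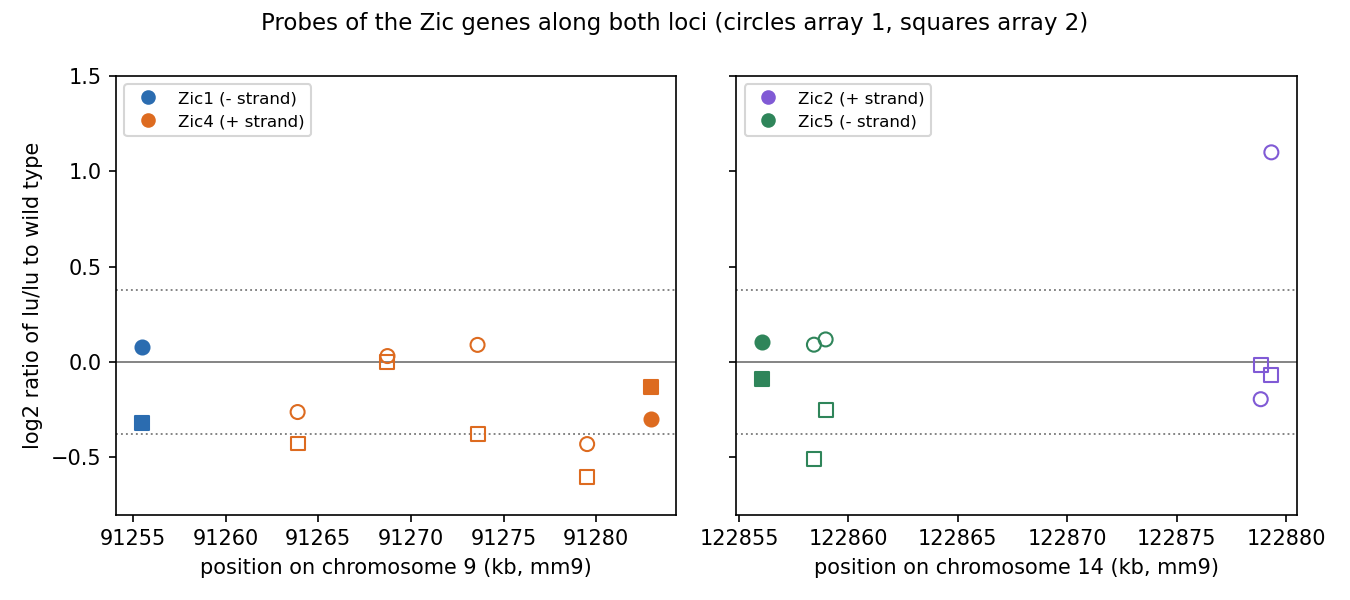
Log2 ratio of lu/lu to wild type for the 11 Zic probes against their position (kb, mm9) on chromosomes 9 and 14, with circles for array 1, squares for array 2, filled symbols for probes that passed the signal filter, open symbols for the others and dotted lines at 1.3-fold. One *Zic4* probe lies below the lower dotted line on both arrays, at −0.43 and −0.60.

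Each value above rests on the short stretch of transcript that its probe binds. The first 30 of the 60 bases of the probes behind the results are given 5′ to 3′ as the files hold them, in lower case with no part singled out.
*Zic1* at chr9:91255425-91255484: atccgcatgtaaagggtctggtttattcat
*Zic4* at chr9:91282924-91282983: agacccctacactccaccagtagataactt
*Zic4* at chr9:91279481-91279540: gtatgcactttgcccatggaaccaatgtcc
*Zic5* at chr14:122856019-122856078: gtacctcccttagaaagaagtcaagaatgg
*Zic2* at chr14:122879296-122879355: cgttagcttttttccgaaataacacccttc
*Zic2* at chr14:122878810-122878869: cttccttttccacggtgattttaacggctt
Apart from the *Zic5* probe and BB247860, no Zic probe shared 20 bases in a row with a probe of another gene name. Probe GC content ranged from 35.0% to 55.0% over the 11 probes.

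Across the 11 probes, 4 had a negative log2 ratio on array 1 and 11 on array 2. The median log2 ratio of the probes was 0.08 on array 1 and −0.25 on array 2, but 8 of the 11 did not pass the signal filter. For the 10 well above background it was 0.0552 and −0.23, beside −0.0125 and −0.0106 over all 33949 such probes. For the 3 genes that passed the filter it was 0.0791 and −0.13, beside 0.0195 and −0.00467 over all genes tested. For *Zic1*, wild type was higher on array 2 than on array 1 by 0.18 on the log2 scale, and lu/lu was lower on array 2 than on array 1, with a log2 difference of −0.21. The *Zic4* ratio less the *Zic1* ratio was −0.38 on array 1 and 0.19 on array 2, so its sign turned between the arrays.

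The genes whose pattern over the 4 channels was nearest to each Zic gene were named by the Euclidean distance of log2 signals less the gene's mean. For *Zic1* these were *Syvn1*, *Eif1a* and *Krt85*, at distances of 0.0250, 0.0315 and 0.0323, against a median of 0.303 over all genes tested. *Spsb2*, *Urod* and *Drg2* were nearest to *Zic4*, at 0.0165, 0.0342 and 0.0374 against a median of 0.399. *Psmd1*, *Mmachc* and *Tacc3* were nearest to *Zic5*, at 0.00983, 0.0122 and 0.0151 against a median of 0.215.

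Within 1 Mb of a Zic probe lay 10 other gene names beside *Zic1* and *Zic4* and 25 beside *Zic2* and *Zic5*. Of the former, 2 passed the filter, AK144370 and *Plscr1*, with mean log2 ratios of −0.10 and −0.19, and 0 were beyond 1.3-fold on both arrays. Beside *Zic2* and *Zic5*, 7 passed, namely BB247860, *Clybl*, *Tm9sf2*, *Pcca*, *Ubac2*, *Tmtc4* and AA536875. Of these 7, 1 was higher beyond 1.3-fold on both arrays, where 2.58% of all genes tested were. That 1 was AA536875, 696 kb from the nearest Zic probe. It gave 10683 in wild type and 15932 in lu/lu on array 1 and 10167.5 and 14564 on array 2, with a mean log2 ratio of 0.55 and a limma adjusted p of 0.0510. *Clybl* and *Tm9sf2* had means of −0.25 and −0.21, and *Ubac2* −0.18, while *Pcca*, BB247860 and *Tmtc4* had 0.10, 0.11 and 0.18. The *Zbtb16* probe is also on chromosome 9, 42.8 Mb from the *Zic1* probe.

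The Gli and Glis genes carry the zinc fingers most like those of Zic proteins. All 6 were well above background and 3 passed the filter, with 0 beyond 1.3-fold on both arrays in either direction and a median log2 ratio of 0.15 (0.23 on array 1 and 0.00580 on array 2), beside 0.01 over all genes tested. *Gli3*, a transducer of Hedgehog signals, gave 1833 and 2144 (wild type and lu/lu) on array 1 and 1643 and 2044 on array 2, with a limma adjusted p of 0.104. *Glis2* had log2 ratios of 0.29 and 0.00580, and *Gli1*, the third that passed, −0.0663 and −0.24. Over all 6 genes well above background the median was 0.0636.

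Of 17 genes of the roof plate and dorsal neural tube, where Zic genes are active, 8 passed the filter, 1 was higher and 1 lower beyond 1.3-fold on both arrays, and the median log2 ratio was 0.03 (0.0982 on array 1 and −0.0772 on array 2). The higher one was *Bmp4*, a dorsalizing ligand, with 1179 and 1659 (wild type and lu/lu) on array 1 and 1217 and 1602 on array 2. The lower one was *Pax3*, a transcription factor of the dorsal neural tube and neural crest, with 497 and 377 on array 1 and 583 and 360 on array 2. Their mean log2 ratios were 0.44 and −0.55, each with a limma adjusted p of 0.0574. *Bmp4* was no longer beyond 1.3-fold on both arrays with the mean over its probes (0.30) or with the GC trend removed (0.41), nor was *Pax3* with normexp and loess (−0.49) or with normexp and median centring (−0.0453). Median centring moved the median of all tested genes to 0.56, and *Pax3* was still below that median. Of the 8 that passed, 2 had a positive log2 ratio on both arrays, 3 a negative one, and the signs were opposite for 3. The signal filter left out dimmer genes, some of them lower beyond 1.3-fold and some not. Of the latter, *Wnt3* (0.22 and 0.16) and *Pax7* (0.08 and 0.14) were positive on both arrays and *Msx3* (−0.28 and −0.32) negative. *Bmp5* (0.33 and −0.14) and *Bmp6* (−0.14 and 0.41) had opposite signs. Of the list's 15 genes well above background, 1 was higher and 3 were lower (median 0.08). Of all 23283 genes well above background, 2.52% were higher and 2.07% lower. The 2 added were *Wnt3a*, a Wnt ligand of the dorsal midline, with 125 and 50.0 (wild type and lu/lu) on array 1 and 117 and 53.9 on array 2, and *Olig3*, a transcription factor of dorsal progenitors, with 74.5 and 31.8 on array 1 and 99.2 and 48.4 on array 2. For both, the lu/lu channels were below both wild type channels. With no filter the list had 1 higher and 5 lower of 17, and the 2 further genes, *Atoh1* and *Gdf7*, were not well above background in every channel. *Atoh1* gave 91.6 and 2.84 (wild type and lu/lu) on array 1 and 83.9 and 3.92 on array 2. *Gdf7* gave 22.6 and 5.66 on array 1 and 15.6 and 2.31 on array 2. Over all 37071 genes with no filter, 1695 were higher and 2173 lower, which also stands beside the counts with no filter of the lists below. By their brightest probes, *Zic1*, *Zic2*, *Zic4* and *Zic5* were not beyond 1.3-fold in 1 direction on both of these arrays.

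Beside the next counts, 2.58% of all genes tested were higher and 0.736% lower, and 2.52% and 2.07% of all genes well above background. Of 10 genes of the neural plate border and crest, 6 passed, 0 were higher and 1, again *Pax3*, was lower. The median log2 ratio was 0.27 (0.26 on array 1 and 0.11 on array 2). Of its 9 genes well above background, 0 were higher and 2 lower (median 0.11), with *Sox10*, a neural crest transcription factor, at −0.39 and −0.65, and with no filter 3 of 10 were lower, *Foxd3* among them, which was not well above background in every channel. Of the 6 that passed, 3 had a positive log2 ratio on both arrays, *Tfap2a* (0.92 and 0.24), *Sox9* (0.30 and 0.61) and *Snai2* (0.62 and 0.24), and 2 a negative one, *Pax3* and *Snai1* (−0.25 and −0.52), while *Msx1* had 0.23 and −0.00833. Of 13 genes of the medial telencephalon, 8 passed and 0 were beyond 1.3-fold in 1 direction on both arrays, with a median log2 ratio of 0.35 that was 0.0651 on array 1 and 0.56 on array 2. Among the 11 well above background the median was 0.30. Of the 8 that passed, 4 had a positive log2 ratio on both arrays, *Wnt5a* (0.34 and 0.50), *Dmrta2* (0.25 and 1.14), *Lhx5* (0.92 and 0.17) and *Fgf8* (0.40 and 0.19), and 1 a negative one, *Fgf18* (−0.25 and −0.35). The signs were opposite for 3, among them *Lhx2* (−0.18 and 0.86) and *Emx2* (−0.16 and 0.62).

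Of 13 genes linked to holoprosencephaly, a list that did not hold *Zic2*, 8 passed, 2 were higher and 0 lower, with a median log2 ratio of 0.13 that was 0.34 on array 1 and 0.00401 on array 2. Over all genes tested, 2.58% were higher and 0.736% lower. *Shh*, the ligand of the ventral midline, gave 536 and 1120 (wild type and lu/lu) on array 1 and 677 and 1385 on array 2. Both lu/lu channels were above both wild type channels, and the mean log2 ratio was 1.05 (limma adjusted p = 0.0469). Over the alternatives the limma adjusted p ran from 2.37e-23 with normexp and median centring to 0.506 with no filter. With normexp and median centring, 9652 of the 10600 genes tested had an adjusted p under 0.05. *Six3*, a forebrain transcription factor, had a mean log2 ratio of 0.54 (limma adjusted p = 0.0513). With the mean over probes *Six3* was no longer beyond 1.3-fold on both arrays (0.44), and the count of higher genes was 1. Of the 8 that passed, 3 had a positive log2 ratio on both arrays and 1 a negative one, *Boc* (−0.40 and −0.37), while the signs were opposite for 4.

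The tissue was checked with region and cell type markers. Beside the counts below, 2.58% of all genes tested were higher and 0.736% lower beyond 1.3-fold on both arrays. Of all genes well above background, 2.52% were higher and 2.07% lower. All 8 forebrain and all 10 progenitor genes were well above background, as were 7 of 8 midbrain and isthmus genes and all 8 early neuron genes, while *Hoxa2*, *Hoxb1*, *Hoxb2*, *Hoxb4*, *Hoxc4* and *Egr2* of the 8 hindbrain and spinal cord genes were not, and 0 of those 8 passed the filter. Forebrain genes beyond 1.3-fold on both arrays were 3 higher and 0 lower of 6 that passed (median 0.47), among them *Six3*, and *Otx2* with log2 ratios of 0.38 and 0.39, and 4 of the 8 well above background were higher, with *Nkx2-1* added at 1.27 and 0.47. *Otx2* was no longer beyond 1.3-fold on both arrays with normexp and loess (0.37), the mean over probes (0.17) or the GC trend removed (0.35), nor was *Six3* with the mean over probes (0.44), where the forebrain count was 1. Midbrain and isthmus genes were 1 higher, again *Otx2*, and 1 lower of 4 (median −0.05, with −0.11 on array 1 and −0.00692 on array 2), with *En2* at −1.86 and −1.25. Of the 7 well above background, 1 was higher and 2 lower (median −0.06), with *Pax8* at −0.52 and −0.58, and with no filter 3 of 8 were lower, *En1* among them, which was not well above background in every channel. The 2 hindbrain and spinal cord genes well above background were both lower, among them *Gbx2* at −2.25 and −1.96, and with no filter 1 of 8 was higher, *Hoxa2*, and 3 were lower, with *Hoxb2* added. Progenitor genes were 1 higher of 9 (median 0.18, with 0.14 on array 1 and 0.41 on array 2), *Sox2* with a mean of 0.46 (0.38 and no longer beyond 1.3-fold on both arrays with the GC trend removed), beside *Vim* with 0.14. Early neuron genes were 1 higher of 6 (median 0.37, with 0.0931 on array 1 and 0.66 on array 2), *Elavl4* with a mean of 0.57 (no longer beyond 1.3-fold on both arrays with the mean over probes, at 0.38, or with the GC trend removed, at 0.49), beside *Stmn2* with −0.0367 on array 1 and 0.60 on array 2.

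Markers of other cell types were also present. The same shares stand beside their counts, with 2.58% of all genes tested higher and 0.736% lower. For all genes well above background these were 2.52% and 2.07%. Of 7 cranial mesenchyme genes that passed, 0 were beyond 1.3-fold on both arrays (median −0.05, with 0.0300 on array 1 and −0.13 on array 2), and *Col1a2* and *Prrx2* had means of 0.13 and −0.05, with *Col1a2* at −0.0466 with the mean over probes. *Foxc1*, *Pdgfra* and *Col1a1* had negative log2 ratios on both arrays (−0.21 and −0.35, −0.15 and −0.33, and −0.19 and −0.23). Of the 9 well above background 1 was lower, *Tcf15* at −0.52 and −0.50, and the median was −0.21. Of 2 endothelial genes that passed, 0 were higher and 1 lower beyond 1.3-fold on both arrays (median −0.60, with −0.45 on array 1 and −0.74 on array 2), *Emcn* with a mean of −0.65 (−0.12 and no longer beyond 1.3-fold with normexp and median centring) beside *Cldn5* with −0.54. That centring moved the median of all tested genes to 0.56, and *Emcn* was still below that median. All 7 endothelial genes were well above background, of which 4 were lower and 0 higher (median −0.65), *Kdr*, *Tek* and *Esam* being the others, and the summed signal of the 7 endothelial genes was 1411 in wild type and 1024 in lu/lu on array 1 and 1541 and 904 on array 2. The summed signal of 7 erythroid genes, led by *Hbb-y*, was 466136 in wild type and 250021 in lu/lu on array 1 and 193989 and 237038 on array 2. Of the 5 erythroid genes that passed, 0 were beyond 1.3-fold in 1 direction on both arrays (median −0.36, with −0.90 on array 1 and 0.12 on array 2), with *Hbb-bh1* at −0.85 and 0.12. For 7 surface ectoderm genes, led by *Krt18*, the sum was 8396 and 12617 on array 1 and 11876 and 9298 on array 2, and 0 of 5 were beyond 1.3-fold in 1 direction on both arrays (median 0.12, with 0.54 on array 1 and −0.30 on array 2; *Krt8* at 0.46 and −0.67), while of the 7 well above background 1 was higher, *Grhl3* at 0.63 and 0.79. For 5 macrophage genes, led by *Ptprc*, it was 2969 and 2334 on array 1 and 2462 and 2334 on array 2, with 0 of 3 beyond 1.3-fold in 1 direction on both arrays (median −0.19, with −0.57 on array 1 and −0.14 on array 2; *Csf1r* at −0.57 and −0.23). The surface ectoderm sum, like the *Zic1* signal, was higher in lu/lu on array 1 and lower on array 2. Other lists shared this turn. The roof plate and dorsal neural tube sum (led by *Msx1*) was 13659 and 15495 on array 1 and 13791 and 13525 on array 2. For the neural plate border and crest, also led by *Msx1*, it was 9991 and 11468, then 10346 and 10040. For cranial mesenchyme it was 13393 and 13761, then 10982 and 10478. The part of any of these cells in the *Zic1* values was not tested.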

How the data were processed

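RNA of wild type and *Plzf* lu/lu embryos was compared on 2 arrays with 2 dyes. The authors used Feature Extraction, which gave a processed intensity per spot after background subtraction and LOWESS dye normalization within the array. Red over green ratios were deposited on the log10 scale with the spots. The authors' table of log2 ratios matched these after conversion, with no gap above 0.005, and served as an alternative.

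Control spots were left out, as were outlier spots (137 of the 59305 gene spots on array 1 and 126 on array 2), and repeated spots were averaged as log2 values. The brightest probe stood for a gene. The ratio was lu/lu over wild type processed signal. The signal-to-noise ratio was the spot mean less the local background median, over the background SD. For 10600 genes, lmFit and eBayes of limma (3.58.1, under R 4.3.3) tested the mean ratio against 0, with Benjamini-Hochberg adjustment and 1 residual degree of freedom per gene, after being tested on simulated data. Alternatives changed the background correction (normexp, offset 50), scaling, filter, choice of probe, GC trend, variance model, pairing, threshold and arrays. Python 3.11.15 was used with matplotlib 3.10.9, scipy 1.17.1, pandas 2.3.3 and numpy 2.4.6, and R with the package data.table (1.17.8).

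In each list, named genes were those beyond 1.3-fold on both arrays with the largest smaller fold, at most 4, filled up to 2 with the brightest genes that passed. The 3 nearest genes to each Zic gene that passed, passing genes within 1 Mb, and *Zbtb16* were also named, and 1 gene that this rule takes is not reported here. Other genes of the lists that are named, outside this rule, were chosen after their values were seen. Members and lists were chosen with earlier results of these data known. Gene names and positions (mm9) are those of the files, and the transcript accessions of 8 of the 11 probes were found in RefSeq (GRCm38.p6), all 8 under the same symbol. The number of arrays limits the precision. The limma p-values rest on the spread between these 2 arrays together with the variance pooled over genes.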

Additional observations from a re-analysis of the deposited data

How the results depend on the processing

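No Zic gene or probe was higher beyond 1.3-fold on both arrays under the alternatives run, and none was lower except 1 of 10 probes when each probe well above background was taken on its own, an alternative chosen after seeing the data. Normexp with median centring turned *Zic1* to 0.51 (limma adjusted p = 0.000562, from there up to 0.766 over 10 alternatives) and *Zic4* to 0.24 (0.0979, up to 0.601), and *Zic5* was at 0.52 (0.000413, up to 0.986), so that 2 Zic genes had an adjusted p under 0.05. The median of all genes moved to 0.56 with it. *Zic5* turned to −0.0897 with the mean over probes and to −0.0518 with the GC trend removed, and the cause was not tested. Without replicate 1 or 2, values with no test ran from −0.32 to 0.0791 for *Zic1*, −0.30 to −0.13 for *Zic4*, −0.0892 to 0.10 for *Zic5* and −0.0700 to 1.10 for *Zic2*, whose mean was 0.51 (limma adjusted p = 0.605 with no filter and 0.441 for genes well above background). Without the pairing of channels by array (no replicate block), *Zic1*, *Zic4* and *Zic5* had limma adjusted p-values of 0.526, 0.371 and 0.970.

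Over all genes, 274 were higher and 78 lower beyond 1.3-fold on both arrays. These counts were 6731 and 4 with normexp and median centring, 586 and 481 for genes well above background, 1695 and 2173 with no filter, 766 and 779 with each probe well above background and 41 and 12 at 1.5-fold, and the mean over probes gave 142 higher. Without replicate 1 or 2, 477 to 875 genes were higher and 208 to 592 lower on the array that remained. The count at a limma adjusted p under 0.05 went from 3 to 9652 with normexp and median centring, 233 with each probe and 168 with the GC trend removed. It was 0 with normexp and loess, eBayes with trend, the mean over probes, the channels without pairing, the deposited log2 values, each probe or each gene well above background, and no filter. For the lists and the other named genes over up to 12 alternatives each, 512 values were within 1.5 times a count or 1 SD of a mean, or still beyond 1.3-fold, 58 moved further, 12 (of *Bmp4*, *Elavl4*, *Emcn*, *Otx2*, *Pax3*, *Six3* and *Sox2*) were no longer beyond 1.3-fold on both arrays and 0 called genes turned in direction. Low signal limits *Zic2* and 6 of the other Zic probes, which had all 4 signals under 200, although 10 of the 11 Zic probes were well above background.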
